A study of Saccharomyces cerevisiae with 12 samples.

Results

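The mitochondrial genome of budding yeast was read from 18 of the 2441 windows in a table of genomic DNA sequencing, chosen as all windows whose sequence is Mito. They cover the whole mtDNA of 85779 bp in the R64 reference, and each window spans 25 kb and starts 5 kb after the previous window, apart from the shorter windows at the end of the map. The members are the 8 protein-coding genes COX1, ATP8, ATP6, COB, OLI1, VAR1, COX2 and COX3, and each was read from the windows that contain it whole. The cells were diploids carrying the mother enrichment program (MEP), in which a Cre recombinase under the daughter-specific SCW11 promoter cuts out loxP-flanked UBC9 and CDC20 in newborn daughters once estradiol is present, which leaves the mothers to age in batch culture. All 4 genotypes share this system and were grown in YPD, a rich medium with glucose. The spt3 mutant, rad52 mutant and sac3 mutant are homozygous deletions made with the TRP1 marker, and the wild type lacks a functional TRP1. Each genotype had 1 library from log phase cells and 1 each from mother cells purified on streptavidin beads after 24 h and 48 h, which gives 12 libraries: 8 aged and 4 log phase. No genotype and time point has a replicate, so a difference between single libraries has no replicate check.

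Yeast mtDNA encodes core subunits of the respiratory chain and of the ATP synthase, while the other subunits and the whole replication machinery come from nuclear genes. COX1, COX2 and COX3 are the catalytic core of cytochrome c oxidase, COB is cytochrome b of the bc1 complex, ATP6, ATP8 and OLI1 belong to the membrane part of the ATP synthase, and VAR1 is a protein of the mitochondrial ribosome. The mtDNA also carries both ribosomal RNAs, a set of tRNAs and RPM1, the RNA of mitochondrial RNase P. It is rich in A and T, and it holds several origin-like sequences (ORI), some of which lie directly behind the nonanucleotide promoter of the mitochondrial RNA polymerase. Cells can live by fermentation with part or none of the mtDNA, and shortened mtDNAs with an active origin are known to compete well against the complete molecule.

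The sequences below are from origins in stretches with a high signal in some libraries. ORI5 lies in the 5 kb stretch with the highest signal in 11 of 12 libraries, and ORI2 and ORI3 lie in stretches that stood high in sac3 cells at 48 h. The ORI2 stretch also holds ORI7. It was below the median stretch in every rad52 and wild type library, and on both sides of it in spt3 and sac3 cells. The stretch of ORI6, which is not shown, also stood high in sac3 cells at 48 h (1.63 times the median). Capitals in these 3 sequences mark the nonanucleotide ATATAAGTA, searched on both strands. ORI5 with the motif in front of it is Mito:82321-82600 on the + strand, ORI2 is shown with 15 bases on each side of the motif at Mito:32209-32217 on the + strand, and ORI3 likewise at Mito:54840-54848 on the - strand.
ORI5: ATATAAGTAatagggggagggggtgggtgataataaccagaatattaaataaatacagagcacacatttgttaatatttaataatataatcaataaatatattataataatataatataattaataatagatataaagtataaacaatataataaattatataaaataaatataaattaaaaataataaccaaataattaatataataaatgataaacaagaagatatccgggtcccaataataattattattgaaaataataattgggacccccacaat
ORI2: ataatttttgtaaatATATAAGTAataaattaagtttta
ORI3: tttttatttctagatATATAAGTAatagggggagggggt
The motif occurred 14 times in the mtDNA and in 10 of its 17 full 5 kb bins (58.8%), against 10% of the 2407 full nuclear bins. Other sites stood upstream of COX1 (469 bp before the gene), OLI1 (652 and 574 bp), 15S rRNA (84 bp) and 21S rRNA (9 bp). A match of these letters is a description and not a measured site of initiation.

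The genes differ in base composition, which can affect how well sheared DNA is amplified and sequenced. The first 90 coding bases of COX1 (Mito:13818-13907), OLI1 (Mito:46723-46812) and VAR1 (Mito:48901-48990), all on the + strand, are shown with G and C in capitals.
COX1: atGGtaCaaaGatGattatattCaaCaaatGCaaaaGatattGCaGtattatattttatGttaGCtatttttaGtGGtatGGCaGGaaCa
OLI1: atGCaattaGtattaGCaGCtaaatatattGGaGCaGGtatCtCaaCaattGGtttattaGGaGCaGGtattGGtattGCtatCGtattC
VAR1: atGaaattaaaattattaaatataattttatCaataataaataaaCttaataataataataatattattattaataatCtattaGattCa
Over the whole gene the GC content was 10.4% in VAR1 and 33.3% in OLI1, the lowest and the highest of the 8 genes, although OLI1 and most of VAR1 lie in the same 5 kb bin. COX1 is the longest gene at 12884 bp (Mito:13818-26701), of which 1605 bp in 8 parts are coding and the rest intronic. COB spans 7108 bp (Mito:36540-43647) with 1158 coding bp in 6 parts. The remaining genes have a single coding part each: ATP8 at Mito:27666-27812, ATP6 at Mito:28487-29266, OLI1 at Mito:46723-46953, VAR1 at Mito:48901-50097, COX2 at Mito:73758-74513 and COX3 at Mito:79213-80022. All 8 are on the + strand.

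Libraries held 5261601 to 12147987 reads, of which 0.571% to 17.5% fell on the mtDNA. The lowest full 5 kb stretch of the mtDNA held at least 1071 reads in every library, a counting error of at most 3.06%, which does not include variation between cultures. The labels were checked in 5 kb bins that hold the deleted genes, as the signal relative to neighbouring bins and to the wild type library of equal age. The SAC3 bin stood at 0.331 to 0.402 in the 3 sac3 libraries and at 0.926 to 1.05 in the 6 other mutant libraries, the RAD52 bin at 0.650 to 0.774 against 0.885 to 1.13, and the SPT3 bin at 0.785 to 0.806 against 0.947 to 1.02. All 9 mutant libraries matched their labels. Only 0.182% of the 75-base stretches of the mtDNA also occur in the nuclear reference and 0.177% occur more than once within the mtDNA, so few reads could be placed elsewhere.

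The mtDNA level, defined as the median signal per kb of the mitochondrial windows over the median signal per kb of full nuclear windows in the same library, was higher in all 8 aged libraries than in the log phase cells of that genotype. In the spt3 mutant the level read 0.877 (log phase), 3.68 (24 h) and 7.41 (48 h). In the rad52 mutant it was 2.19, 32.6 and 40.6 at these times. In the sac3 mutant it was 1.00, 3.81 and 5.71. The wild type reached 1.37, then 7.15, then 38.0. The genotypes therefore reached different levels at different times: the rad52 mutant was near its highest level by 24 h, with a ratio of 48 h to 24 h of 1.25, whereas this ratio was 5.32 in wild type, 2.01 in spt3 cells and 1.50 in sac3 cells. Relative to wild type at the same time, the spt3 mutant stood at 0.639, 0.515 and 0.195 at log phase, 24 h and 48 h, the sac3 mutant at 0.731, 0.532 and 0.150, and the rad52 mutant at 1.59, 4.55 and 1.07. These are ratios of single libraries. Fewer cells with mtDNA and fewer copies per cell cannot be told apart in bulk DNA, and a change in nuclear DNA per cell would move the same ratio. With the nuclear total in place of the nuclear median, a total that includes the rDNA, wild type had 3.49 at 24 h and 12.3 at 48 h. The ratios to wild type then became 0.659, 0.852 and 0.483 for the spt3 mutant, 0.769, 0.942 and 0.392 for the sac3 mutant, and 1.58, 7.17 and 2.57 for the rad52 mutant, so the distance between genotypes in aged cells depends on this choice while each ratio stayed on its side of 1.

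**Figure D1:**
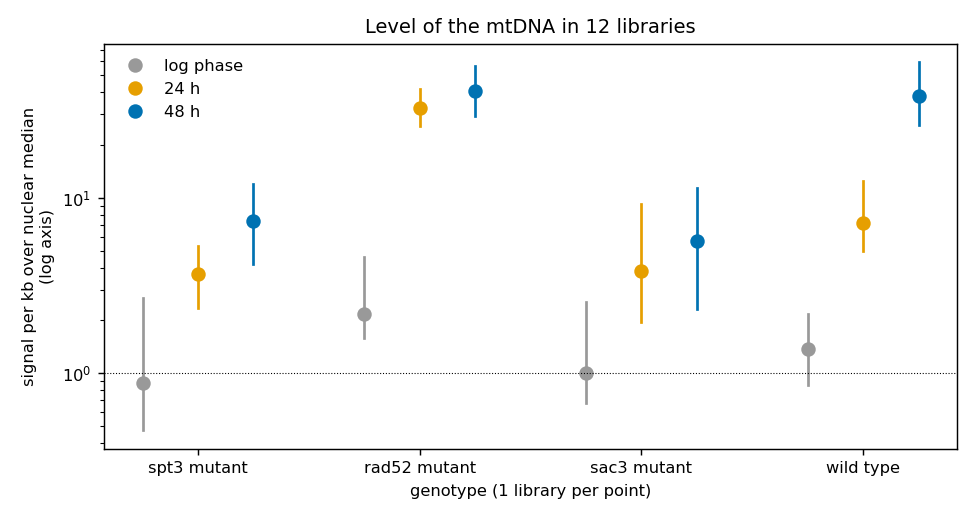
Level of the mtDNA in each of the 12 libraries, by genotype (x axis), as signal per kb over the nuclear median (y axis, log scale). Points are the median of the 18 mitochondrial windows, lines run from the lowest to the highest window and do not show replicate error, and all 8 aged points lie above the log phase point of their genotype.

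The effect of age shared by the genotypes was tested with limma across all 2441 windows, 8 aged against 4 log phase libraries, with genotype as a term. Only the aged cells had biotin labelling, estradiol, longer culture and bead purification, which this comparison cannot tell apart from age. All 18 mitochondrial windows were called higher in aged cells at an adjusted p under 0.05, against 35.1% of all windows called in either direction and 23.0% called higher. The log2 difference of the mitochondrial windows was 2.60 to 3.22 with a standard error of 0.45 to 0.49 and adjusted p of 0.00936 to 0.0102 (limma, Benjamini-Hochberg over all windows), while the median over all windows was 0.00. Windows overlap, so these are not 18 independent results, and the fit treats both aged libraries of a genotype as independent, so p can be too small. The calls depended on the libraries included: without the spt3 mutant none of the mitochondrial windows passed (adjusted p = 0.0872), nor with the 24 h libraries alone (adjusted p = 0.0579), and 7 passed with the 48 h libraries alone.

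Each of the 8 genes was above log phase in every aged library. The gene level is given on the scale of the nuclear median, as the mean signal per kb of the windows that hold the gene. COX1, the subunit that carries the heme-copper centre of cytochrome c oxidase, had 0.525, 2.37 and 4.35 in spt3 cells at log phase, 24 h and 48 h, 1.64, 25.8 and 29.4 in rad52 cells, 0.700, 1.96 and 2.75 in sac3 cells, and 0.923, 5.12 and 26.2 in wild type. COX2, which takes the electrons from cytochrome c, had 1.23, 3.99 and 8.12 in spt3 cells, 2.83, 33.8 and 43.0 in rad52 cells, 1.35, 4.83 and 6.19 in sac3 cells, and 1.66, 8.71 and 43.6 in wild type. COX3, the other core subunit of the oxidase, had 1.57, 4.13 and 8.88 in spt3 cells, 3.36, 35.3 and 45.4 in rad52 cells, 1.67, 5.95 and 7.46 in sac3 cells, and 1.84, 9.67 and 47.1 in wild type. Among these subunits of a single enzyme, COX1 had the lowest level and COX3 the highest in all 12 libraries.

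COB, the only mtDNA-encoded subunit of the bc1 complex, had 0.705, 3.27 and 6.71 in spt3 cells at log phase, 24 h and 48 h, 2.01, 32.3 and 39.2 in rad52 cells, 0.901, 3.33 and 5.34 in sac3 cells, and 1.18, 6.34 and 34.2 in wild type. Its level lay between those of COX1 and COX2 in every library. ATP6 and ATP8 lie next to each other and share all 5 of their windows, so their values are the same measurement. Both had 0.544, 2.62 and 5.05 in spt3 cells, 1.72, 28.4 and 33.0 in rad52 cells, 0.740, 2.32 and 3.56 in sac3 cells, and 0.971, 5.42 and 28.5 in wild type. OLI1, the subunit of the rotor ring of the ATP synthase, had 0.815, 3.57 and 7.34 in spt3 cells, 2.13, 32.5 and 40.4 in rad52 cells, 0.979, 3.71 and 5.83 in sac3 cells, and 1.30, 6.82 and 36.6 in wild type. The ATP synthase genes thus differed among themselves, with OLI1 above ATP6 and ATP8 in every library. VAR1, which lies close to OLI1 and shares 4 of its windows, had 0.851, 3.65 and 7.52 in spt3 cells, 2.16, 32.6 and 40.8 in rad52 cells, 1.00, 3.84 and 6.00 in sac3 cells, and 1.33, 6.96 and 37.3 in wild type. Ratios of an aged library to log phase over the 8 genes ran between 2.63, for COX3 in spt3 cells at 24 h, and 29.4, for ATP6 and ATP8 in wild type at 48 h.

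Because each window mixes a gene with its neighbours, the windows were also solved into 5 kb bins from the differences of successive windows, and each gene was read from the bins it touches. On this scale, as a multiple of the median mtDNA bin and averaged over the 12 libraries, the genes ranked COX1 (0.586 ± 0.118, SD), ATP6 and ATP8 (0.654 ± 0.136), COB (0.850 ± 0.129), COX2 (1.08 ± 0.0510), OLI1 (1.19 ± 0.173), VAR1 (1.21 ± 0.212) and COX3 (1.56 ± 0.361). COX1 was lowest in 12 of 12 libraries and COX3 highest in 10 of 12, the exceptions being OLI1 in spt3 cells at 24 h and COB in rad52 cells at 24 h. Nearly all of COX3 lies in the bin at 75001 to 80000, and only its end reaches the ORI5 bin, which weighed as much. The bin at 75001 to 80000 alone read 1.25 in spt3 cells at 48 h, below OLI1 at 1.30. In sac3 cells it read 1.27 and 1.34 at 24 h and 48 h, below VAR1 at 1.29 and 1.79. In the remaining libraries of the 10 it stayed above the other genes. OLI1 and VAR1 share a bin and differed by 0.0156 on average with an SD of 0.0707 over libraries, and COX2 and OLI1 by 0.112 with an SD of 0.202, so neither pair of neighbours in this order differed beyond its spread. The SD runs over libraries of different genotypes and ages and is not a replicate error.

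**Figure D2:**
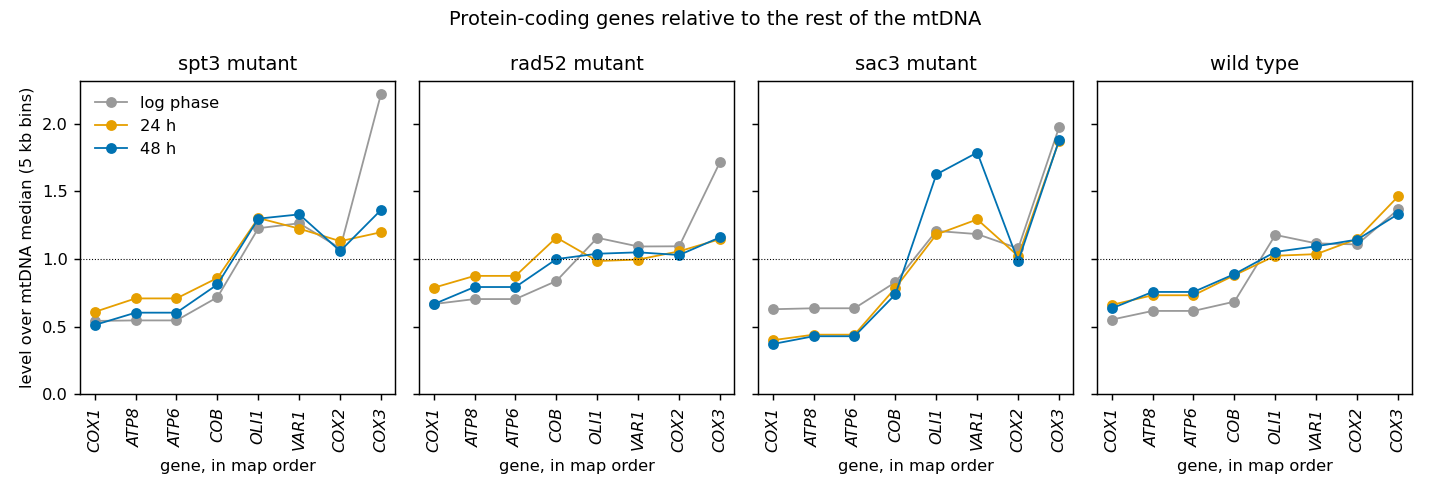
Level of the 8 protein-coding genes in 5 kb bins as a multiple of the median mtDNA bin (y axis), in map order (x axis), with a panel for each genotype and a line for each library. COX1, ATP8 and ATP6 stood below COX3 in every library, and in sac3 cells COX1 was at 0.400 and 0.372 in the aged libraries.

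Relative to the rest of the mtDNA, the sac3 mutant moved apart from the other genotypes with age. In sac3 cells COX1 had 0.629 of the median bin in log phase, then 0.400 at 24 h and 0.372 at 48 h, and ATP6 and ATP8 had 0.636, 0.441 and 0.430. In wild type COX1 had 0.552, 0.661 and 0.635, and ATP6 and ATP8 had 0.617, 0.732 and 0.757. In the spt3 mutant COX1 had 0.543, 0.609 and 0.513 and in rad52 cells 0.667, 0.788 and 0.666. Both aged sac3 libraries were thus below their log phase library at COX1, where the aged wild type libraries were both above theirs and the other mutants gave 1 aged library on each side. VAR1, averaged over the bins it touches, went the other way, with 1.18, 1.29 and 1.79 in sac3 cells against 1.12, 1.04 and 1.09 in wild type. OLI1, whose bin holds most of VAR1, had 1.21, 1.18 and 1.63 in sac3 cells against 1.18, 1.02 and 1.05 in wild type. That bin was thus slightly below log phase at 24 h in sac3 cells. The ORI3 bin, which holds only the end of VAR1 but weighed as much, had 1.16, 1.40 and 1.95. In the 25 kb windows COX1 kept these directions, with ratios to log phase of 0.740 and 0.692 in sac3 cells and 1.06 and 1.03 in wild type. With 1 library per genotype and time these differences between genotypes were not tested.

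The 5 kb profile shows where along the mtDNA the signal lay. The lowest bin was inside COX1 in 12 of 12 libraries, at 15001 to 20000 in 9 of them and at 20001 to 25000 in 3, a stretch where most of COX1 is intron. Sequence annotated as coding or RNA nonetheless covers 95.2% and 70.9% of these bins, so the introns are not all noncoding in the annotation. The highest full bin was 80001 to 85000, which holds the end of COX3 and ORI5, in 11 libraries, and 45001 to 50000 with OLI1, most of VAR1 and ORI6 in spt3 cells at 24 h. The highest full bin was 1.60 times the lowest in rad52 cells at 24 h and 14.4 times the lowest in sac3 cells at 48 h, the extremes of the 12 libraries. In wild type the same ratio was 5.01, 2.99 and 3.09 at log phase, 24 h and 48 h. Every bin nonetheless stood above its log phase level in every aged library, by 1.63 times at the least.

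**Figure D3:**
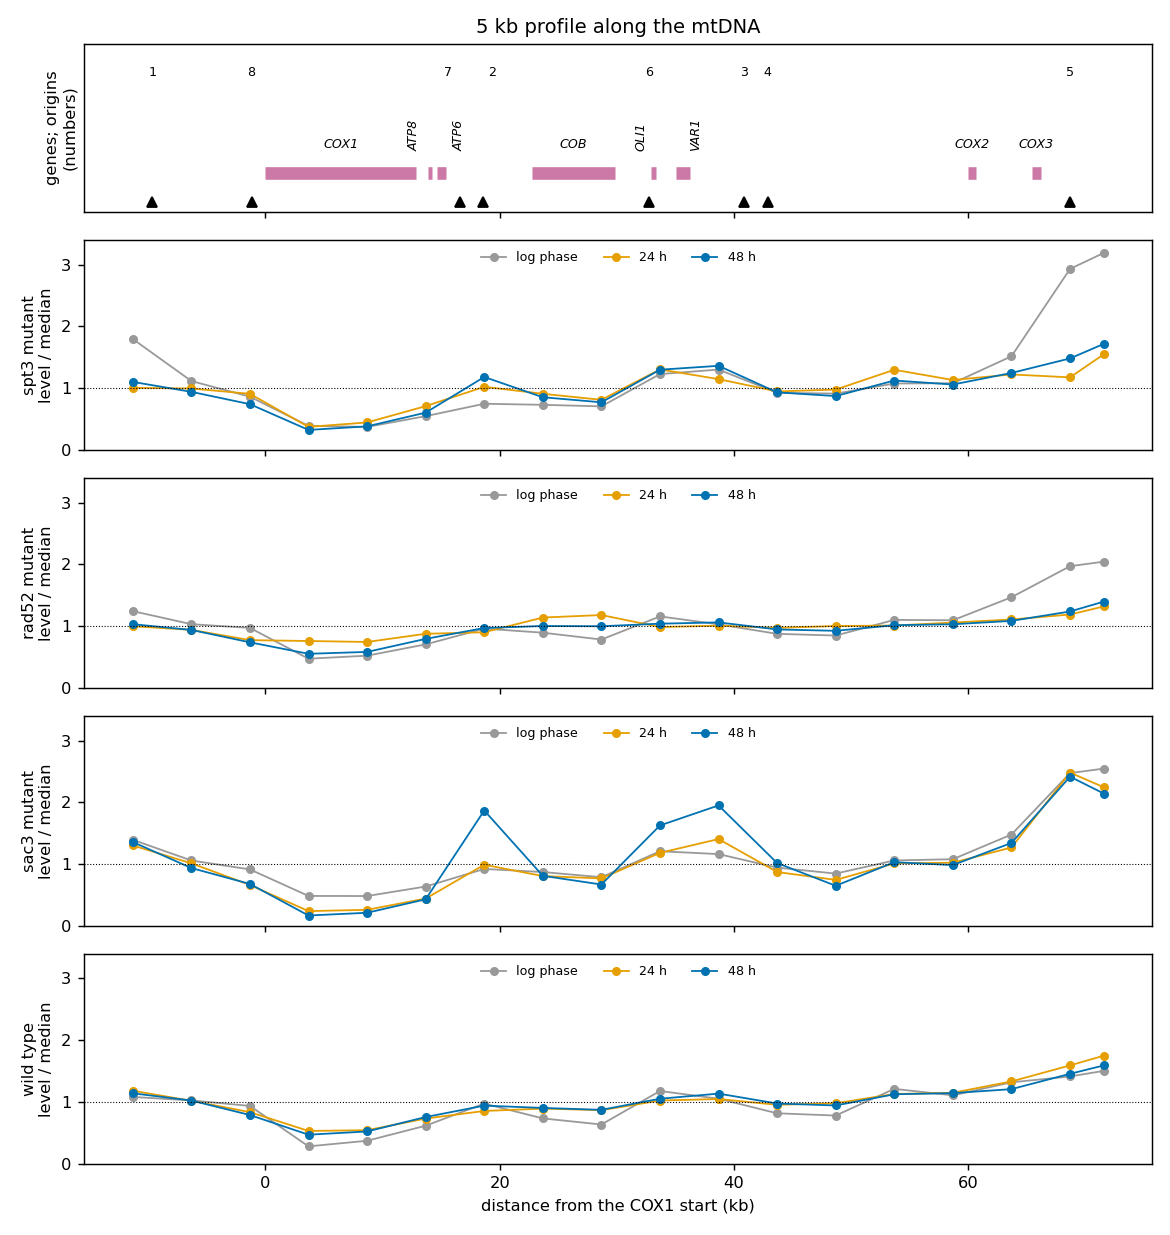
Signal in 5 kb bins as a multiple of the median bin of the mtDNA (y axes) against distance from the COX1 start in kb (x axis), with a panel for each genotype and a line for each library. The top panel marks the 8 protein-coding genes as bars and the 8 annotated origins as numbered triangles, and the sac3 mutant at 48 h stands at 1.87, 1.63 and 1.95 in the bins of origins 7 and 2, 6, and 3.

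In sac3 cells several origin bins stood high at 48 h, and the COX1 trough was deeper in both aged libraries than in any other library. At 48 h the bin of ORI7 and ORI2 held 1.87 times the median bin, that of ORI6 1.63, that of ORI3 1.95 and that of ORI5 2.42, while the COX1 bins at 15001 and 20001 held 0.167 and 0.212. In wild type at 48 h the same origin bins held 0.942, 1.05, 1.14 and 1.46 and the same COX1 bins 0.471 and 0.523. At 24 h the bins of ORI7 and ORI2 and of ORI6 in sac3 cells held 0.989 and 1.18, against 1.02 and 1.30 in spt3 cells. Not every origin stood out: in sac3 cells at 48 h the bin of ORI8, at the start of COX1, held 0.678 and that of ORI4 1.02. Over the 7 full bins with an annotated origin and the 10 without, the ratio of the medians was 1.35, 1.50 and 2.20 in sac3 cells across log phase, 24 h and 48 h, 1.50, 1.08 and 1.37 in spt3 cells, 1.18, 0.980 and 1.07 in rad52 cells, and 1.39, 1.09 and 1.14 in wild type. The 24 h sac3 library was thus level with log phase spt3 cells, and the 48 h sac3 library had the highest ratio of the 12. The log phase libraries of the mutants also peaked at ORI5, with 2.93 in spt3 cells, 1.97 in rad52 cells and 2.47 in sac3 cells against 1.41 in wild type. This peak was lower in aged spt3 cells (1.18 at 24 h and 1.48 at 48 h) and aged rad52 cells (1.19 and 1.24), and about as high in aged sac3 cells (2.48 and 2.42).

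GC content moved with the profile. The COX1 bin at 15001 to 20000 had the highest GC content of the mtDNA bins, 24.4%, and the lowest signal in 9 libraries. Over the 17 full bins the correlation of GC content with log2 level ran from -0.88 to -0.43 in the 12 libraries, a description over bins that share their library. The part of base composition in the profile was not tested.

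Whether stretches of the mtDNA changed relative to the mtDNA itself was tested with limma after subtracting from each window the median of its own sequence in that library, with nuclear chromosomes treated alike. Of the 18 mitochondrial windows 7 passed, against 32.2% of all windows called in this comparison. Of these, 5 were lower in aged cells, against 9.59% of all windows called lower, and they lie at the end of the map. The shorter end windows lie inside one another, so the 5 are not independent results. COX3 was in 4 windows, all called lower, with log2 differences of -0.35 to -0.17 and adjusted p of 0.0161 to 0.0287 (limma), and COX2 shared 3 of them. Higher calls were 2 windows, against 22.7% of all windows called higher, both of which hold OLI1 and VAR1 and the first of which holds COB, with log2 differences of 0.13 and 0.12. No window with COX1, ATP6 or ATP8 passed, with adjusted p of 0.052 to 0.597. The change at COX3 differed between genotypes, which was not tested: COX3 in 25 kb windows relative to the mtDNA median changed by factors of 0.627 and 0.671 at 24 h and 48 h in spt3 cells, 0.704 and 0.728 in rad52 cells and 0.941 and 0.786 in sac3 cells, against 1.01 and 0.926 in wild type. Without the spt3 mutant or without the wild type no window passed, and without the rad52 mutant no lower window did. With full-length windows only, 3 mitochondrial windows passed, all lower.

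**Figure D4:**
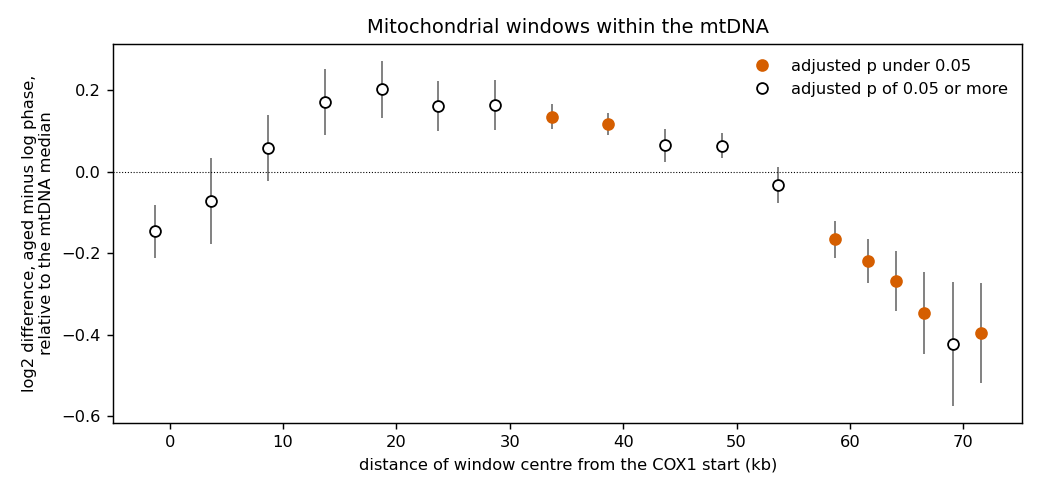
Log2 difference of each mitochondrial window between aged and log phase libraries relative to the median of the mtDNA (y axis) against the distance of the window centre from the COX1 start in kb (x axis). Bars are standard errors from the limma fit over 12 libraries and filled points passed an adjusted p of 0.05; the values decline to -0.42 towards the end of the map.

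In bins of 5 kb, which do not overlap, the same test called 3 of the 18 mitochondrial bins, all lower in aged cells, against 22.1% of all bins called (17.9% higher and 4.22% lower). They were the bin with the start of COX1 (log2 difference -0.30 ± 0.06, SE; adjusted p = 0.00774, limma), the COX3 bin at 75001 to 80000 (-0.27 ± 0.06; adjusted p = 0.0112, limma) and the 15S rRNA bin (-0.15 ± 0.04; adjusted p = 0.0331, limma). The ORI5 bin had -0.47 ± 0.18 and an adjusted p of 0.0882 (limma). The lowest COX1 bin at 15001 to 20000 had -0.07 ± 0.27, and relative to the mtDNA median it was lower in aged sac3 and spt3 cells and higher in aged rad52 and wild type cells.

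Unevenness was measured as the SD of log2 signal over the 17 full 5 kb bins of the mtDNA. It was 0.749, 0.500 and 0.610 in spt3 cells at log phase, 24 h and 48 h, 0.495, 0.209 and 0.311 in rad52 cells, 0.573, 0.847 and 1.06 in sac3 cells, and 0.628, 0.407 and 0.415 in wild type. The mtDNA was thus more even in aged than in log phase cells in 3 genotypes and less even in sac3 cells. As a yardstick, the SD was computed over each of 1952 nuclear stretches of as many bins outside chromosome XII. The yardstick itself was higher in aged cells. The median stretch had 0.185, 0.266 and 0.277 in spt3 cells, 0.163, 0.229 and 0.187 in rad52 cells, 0.168, 0.213 and 0.262 in sac3 cells, and 0.186, 0.259 and 0.281 in wild type. The most uneven nuclear stretch of all libraries, at 0.894, was in sac3 cells at 48 h, the library with the fewest reads. In 4 libraries no nuclear stretch was as uneven as the mtDNA: the log phase libraries of the spt3 mutant and wild type and both aged sac3 libraries. With full-length 25 kb windows this held only for the sac3 mutant at 24 h, and 3, 34 and 63 stretches were as uneven as the mtDNA in log phase spt3 cells, log phase wild type cells and sac3 cells at 48 h. In the rad52 mutant at 24 h, 1090 of the stretches were at least as uneven in 5 kb bins and 1058 in 25 kb windows. Over the 25 kb windows, whose overlap and shorter end windows weigh the end of the map more, the sac3 mutant had 0.609, 0.688 and 0.619 and wild type 0.428, 0.410 and 0.362.

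**Figure D5:**
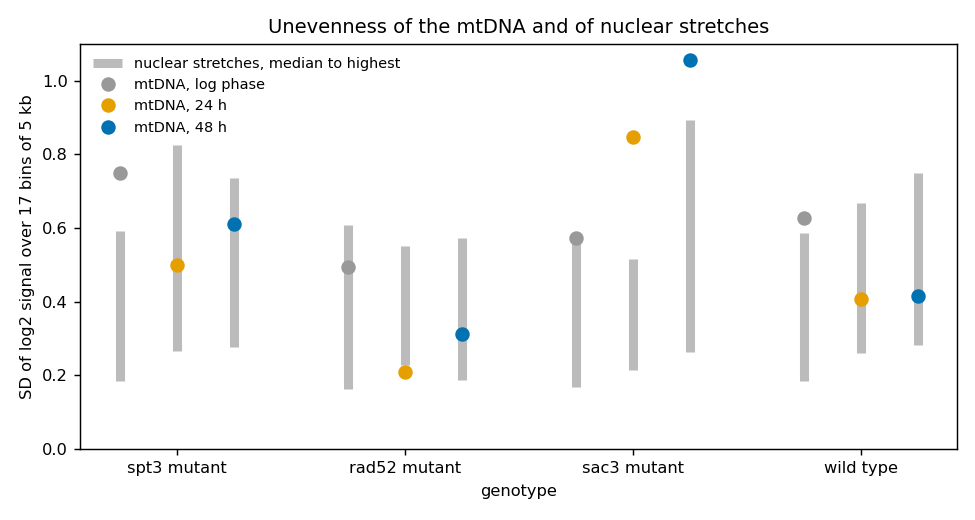
SD of log2 signal over the 17 full 5 kb bins of the mtDNA (points, y axis) in each of the 12 libraries, by genotype (x axis). Grey bars run from the median to the highest SD over 1952 nuclear stretches of 17 bins in the same library, and the aged sac3 points at 0.847 and 1.06 lie above their bars.

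Between 24 h and 48 h no mitochondrial window was called, and no window of the table was (limma, 0.00% of 2441). The mitochondrial windows were higher at 48 h by 0.89 to 1.15 on the log2 scale with a standard error of 0.40 to 0.51 and an adjusted p of 0.970 (limma), and 9 of the 18 had an unadjusted p under 0.05, against 23 of all 2441 windows. The time course differed between genotypes, as the ratios of 48 h to 24 h above show, and this enters the spread. Nor did a mitochondrial window pass for any mutant against wild type over the 3 time points. That fit takes the 3 time points of a genotype as its only repeats, with a term for age shared by all genotypes. Differences in time course between genotypes therefore enter its spread. The log2 difference was -1.52 to -1.07 for the spt3 mutant, where 0.00% of all windows were called and the adjusted p was 0.998 (limma). It was 0.89 to 1.20 for the rad52 mutant, with 0.00% called and an adjusted p of 0.253 to 0.358 (limma), and -1.76 to -0.76 for the sac3 mutant, with 1.88% called (1.68% higher and 0.205% lower) and an adjusted p of 0.270 to 0.622 (limma). At an unadjusted p under 0.05 there were 5 mitochondrial windows of 49 in all for the spt3 mutant, 0 of 619 for the rad52 mutant and 7 of 342 for the sac3 mutant. Standard errors in this fit, which also has the term for age, were 0.61 to 0.66.

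The genes for structural RNAs followed the stretches they lie in. The 15S rRNA gene (Mito:6546-8194) held 0.945, 3.43 and 6.58 times the nuclear median in its 5 kb bin in spt3 cells at log phase, 24 h and 48 h, 2.31, 29.7 and 38.1 in rad52 cells, 1.06, 3.82 and 4.46 in sac3 cells, and 1.48, 7.28 and 38.1 in wild type. The 21S rRNA gene (Mito:58009-62447) held 0.777, 3.32 and 6.31 in spt3 cells, 1.93, 31.2 and 38.0 in rad52 cells, 0.893, 3.05 and 3.97 in sac3 cells, and 1.15, 6.91 and 35.7 in wild type. Both rRNA genes were thus near the middle of the mtDNA range in most libraries. RPM1 (Mito:85295-85777) lies in the last bin of 779 bp next to ORI5, and its bin exceeded the level of every protein-coding gene, averaged over the bins the gene touches, in all 12 libraries, at 1.72 times the median mtDNA bin in spt3 cells, 1.40 in rad52 cells, 2.14 in sac3 cells and 1.59 in wild type at 48 h. In aged sac3 cells the neighbouring ORI5 bin, which holds the end of COX3, was above it. Of the 24 tRNA genes, 9 lie in the bin at 65001 to 70000, which held 1.01 to 1.30 times the median bin over the 12 libraries.

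Across the 12 libraries the log2 bin levels of all gene pairs rose and fell together, with a Pearson correlation of at least 0.969, a description that the shared change of mtDNA level fixes. The pairs were told apart by the SD of their log2 difference over libraries. After ATP6 and ATP8, which are the same measurement, OLI1 and VAR1 were the most alike (SD 0.08, with a shared bin) and COX1 and ATP6 next (0.08, also with a shared bin). COX3 and ATP6 were the least alike (0.60), followed by COX3 and COX1 (0.56) and COX1 and VAR1 (0.53).

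Windows that hold nuclear genes for copying and maintaining mtDNA were read as DNA signal, which does not measure expression of these genes. The libraries were scaled to each other and nearly all windows are nuclear, so nuclear windows as a group could hardly move with the mtDNA. Each of 12 genes for mtDNA maintenance was read from the 25 kb window centred nearest to it. Of these, 3 lay in windows called higher and 2 in windows called lower in aged cells. Over all windows 35.1% were called, 23% higher and 12.1% lower. The list's median log2 difference was 0.01, against 0.00 over all windows. The window of MIP1, the mitochondrial DNA polymerase, differed by 0.11 on the log2 scale (adjusted p = 0.0101, limma) and stood at 1.04 to 1.15 times its log phase level in the 8 aged libraries. The window of ABF2, which packages mtDNA, differed by 0.33 (adjusted p = 0.0124, limma). Those of RPO41, the mitochondrial RNA polymerase, and of its factor MTF1 did not pass, with differences of 0.03 and -0.04 (adjusted p = 0.369 and 0.376, limma). Of 26 nuclear genes for subunits of cytochrome c oxidase, the bc1 complex and the ATP synthase, 7 lay in windows called higher and 5 in windows called lower, with a median of -0.01. Over both lists the ratio to log phase was 0.799 to 1.77 in any aged library, which falls below the lowest ratio of a member gene. A window holds many genes, and some listed genes share a window.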

How the data were processed

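Genomic DNA of 12 yeast libraries, 1 per genotype and time point, had been sequenced from agarose plugs by single-end reads. The deposited table gives a normalised signal: the authors counted reads in windows of 25 kb every 5 kb and scaled the libraries with size factors. Trim Galore 0.6.6 is named for trimming. For DNA the study's methods name Bowtie 2 as aligner and the submitters' processing notes name HISAT2 2.1.0, so the aligner is not settled. The methods describe the removal of mitochondrial and repeat windows before scaling, yet the table holds them. The reference lengths of R64 equal the last window ends of all 17 sequences. The table has no other columns of per-sample values.

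The signal per kb was set against the median full nuclear window of the library. Sums over 5 kb bins were solved from successive windows, starting from the end of each sequence. Reads across a window border make an error of about 1.5% of a bin (75 bp reads). On chromosome XII, next to the rDNA, 54 bins came out below 0 (0 elsewhere). That chromosome was therefore left out of the fits over bins and of the nuclear stretches. The nuclear total, the read totals and the motif share include it. The tests used limma 3.58.1 under R 4.3.3 on log2(signal + 1) for the 2441 windows, with genotype as a term and aged against log phase as the effect, Benjamini-Hochberg adjustment over all windows and a threshold of 0.05. Other fits compared 48 h with 24 h, each mutant with wild type, and windows after subtracting the median of their own sequence. The fit for age was run on simulated data with independent noise in each window and library. That simulation has no overlap of windows and no dependence between libraries of a genotype, so it does not check their effect on p. Levels and evenness are descriptions with no test. Other steps used Python 3.11.15, numpy 2.4.6, pandas 2.3.3 and matplotlib 3.10.9.

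Within each library 99.6% to 100% of the values were whole multiples (within 0.02) of the value of 1 read, which was used for depth only. Named items are the 8 protein-coding genes, the rRNA genes, RPM1, the tRNAs as a group, the 3 deleted genes, 2 lists of nuclear genes and the extreme bins of each library. The members, the lists and the tests were chosen with earlier results of these data known. Alternatives varied the pseudocount, the windows, the centring, the genotypes and time points included and the reference of the level. Sequences and annotation are from the RefSeq copy of R64. Nothing shows that libraries came from separate cultures beyond their labels, so p-values measure the spread between these libraries.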

Additional observations from a re-analysis of the deposited data

Results flagged for a closer look

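The results below, 8 in all, moved in opposite directions in different genotypes, with both aged libraries of a genotype on the same side of its log phase library. The 2 aged libraries of a genotype share that 1 log phase library, and none of these differences between genotypes was tested. How often nuclear bins meet this rule was not counted, so the 8 results have no background share. The results for ATP8 and ATP6 are the same measurement. Values are the gap on the log2 scale between the mean changes of the genotypes named, for levels in 5 kb bins relative to the median mtDNA bin. The genotypes named are those with the largest change on each side. COX1 was lower in aged sac3 cells and higher in aged wild type cells, a gap of 0.94, and ATP8 and ATP6, which share a bin, did so with a gap of 0.82 each. These 3 had the same directions in the 25 kb windows. COB differed between the sac3 mutant (lower) and wild type (higher) by 0.49, COX2 between the same genotypes by 0.15, VAR1 between the sac3 mutant (higher) and the rad52 mutant (lower) by 0.46, and OLI1 between the spt3 mutant (higher) and the rad52 mutant (lower) by 0.28, and these 4 did not have the same directions in the 25 kb windows. The VAR1 value weighs the ORI3 bin, which holds only its end, as much as the bin it shares with OLI1. In sac3 cells the shared bin alone had ratios to log phase of 0.978 at 24 h and 1.35 at 48 h. It thus did not meet the rule of both aged libraries on 1 side. The SD of log2 level over the 5 kb bins of the mtDNA, with the short last bin, was higher in aged sac3 libraries and lower in aged libraries of the other genotypes, with a gap of 0.60 between the sac3 and rad52 mutants.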

How the results depend on the processing

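The mtDNA level and the gene levels kept their direction under every alternative run, moving by less than the SD over genotypes: the mean log2 ratio to log phase was 2.30 to 2.58 at 24 h and 3.22 to 3.66 at 48 h for the mtDNA, and 2.16 to 2.77 and 3.20 to 3.74 for the genes. Counts of windows called with age depended on which libraries entered. From 857 of all windows and 18 mitochondrial windows, they became 32 and 16 without the wild type, 0 and 0 without the spt3 mutant, 0 and 0 with 24 h libraries only, and 22 and 7 with 48 h libraries only. Without windows touching repeats 545 windows were called of 1622 tested, and with 5 kb bins, chosen after seeing the data, 531 of 2225, with all 18 mitochondrial features called in both. Within their own sequence, 787 windows and 7 mitochondrial windows became 0 and 0 without the wild type, without the spt3 mutant, with 24 h libraries only and with 48 h libraries only. The mitochondrial count was 2 without the rad52 mutant and 3 with full-length windows only or with 5 kb bins, where 492 bins were called in all, and without windows touching repeats 501 windows were called. For these counts of 0, unadjusted p under 0.05 was reached by 3 to 18 windows of the mtDNA, and by 737 to 893 of all windows. The sac3 mutant differed from wild type in 46 windows and in 22 after re-centring on nuclear windows outside chromosome XII, none mitochondrial. Fewer libraries enter such fits; the cause was not tested otherwise. The genotype term of the age fits already sets aged libraries against log phase of their own genotype. No further pairing by replicate was possible, because each group has 1 library and the labels carry no replicate numbers. A count test on recovered reads was not run, because there were too few low values to accept the recovered reads. Counting error was at most 3.06% for full 5 kb bins of the mtDNA and does not cover variation between cultures.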
